A study of Phanerodontia chrysosporium with 8 samples.

Results

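Fruiting bodies of the wood-decay basidiomycete Phanerodontia chrysosporium that had started to shed spores (FB, n = 3) were compared with young fruiting bodies (YFB, n = 2), by sequencing of polyadenylated RNA. The compared libraries were taken by their titles and stage labels, 5 of the 8 libraries in the series, and every one of the 13602 gene models in the files was considered. The other 3 libraries, from vegetative mycelium (VM), entered the fit to help estimate the spread and are shown where they place a value. All libraries came from strain RP-78, with no other genotype or agent. Per the labels, cultures grew over cellophane on a glucose, malt, peptone and yeast agar for 7 days at 37 °C in darkness and then fruited in a moist chamber at 25 °C in dim light. FB were picked just after spores could be seen on the dish lids, and YFB were initials, a compact mat with a clear border to the mycelium. FB are therefore also the later harvest, and stage and age cannot be told apart. The series calls its libraries biological replicates without saying which came from separate cultures, so a p-value here reflects only how these libraries vary, which may be partly technical.

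Phanerodontia chrysosporium, long known as Phanerochaete chrysosporium, is a white-rot fungus widely used to study lignin-degrading peroxidases. Its fruiting body is a thin crust that lies flat on the substrate, without cap or stem, and its free surface bears the basidia. In a basidium the haploid nuclei fuse, meiosis follows, and the products move into basidiospores that are shed. The step from initial to shedding crust therefore takes in the maturing of basidia, meiosis and spore formation. The files identify gene models by protein ID and do not pair the IDs with names, so no model is given a role here, the stages could not be checked against marker genes, and no sequence is printed. A bulk library cannot tell fewer cells of a type from less RNA per cell.

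The compared libraries held 16144543 to 26891371 uniquely mapped gene reads, and 0.551 to 0.638% of gene reads were not unique. A model without a read in a library could still hold up to 3 reads there, which is 0.112 to 0.186 CPM (counts scaled to library size). Such limits cover counting error only. After the filter on low counts 12510 models were tested. FB replicates 1 and 3 were sequenced on a flowcell that carried no YFB library, and FB replicate 2 on the flowcell of both YFB libraries.

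Distance between libraries was taken as the share of models at least 2-fold apart. By this share, FB replicates 1 and 2 lay farther from YFB than the replicates of either pair lay from each other. FB replicate 3 lay farther still from all 4 of these libraries. The median absolute log2 difference did not set FB replicate 2 apart from YFB. It was 0.28 and 0.27 between FB replicate 2 and YFB replicates 1 and 2, against 0.29 between the YFB libraries. Between FB replicates 1 and 2, 5.25% of tested models differed at least 2-fold, and between YFB replicates 1 and 2 the share was 6.14%. Against YFB replicates 1 and 2, FB replicate 1 had 9.09% and 12.8% of models at least 2-fold apart, and FB replicate 2 had 7.51% and 9.02%. FB replicate 3 had 23.7% and 22.4% against the same YFB libraries. It was no closer to its own stage, with 29.6% of models at least 2-fold from FB replicate 1 and 22.7% from FB replicate 2. Its distance to the mycelium libraries was of the same size, at 25.6 to 29.1%. The same distance to mycelium was 37.7 to 42.6% in FB replicate 1 and 29.9 to 34.7% in FB replicate 2, and 30.8 to 34.3% and 26.8 to 31.5% in YFB replicates 1 and 2. FB replicate 3 and YFB replicate 2 thus overlapped in this share. The shares at least 4-fold apart from mycelium did not overlap. They were 7.45 to 8.58% in FB replicate 3 and 9.55 to 9.82% in YFB replicate 2. Pearson r of log2 CPM was 0.863 to 0.871 between FB replicate 3 and mycelium. It was 0.898 to 0.918 between FB replicate 3 and the other FB and YFB libraries. FB replicates 1 and 2, the closest pair of the 5, were run on different flowcells, and FB replicates 1 and 3 on the same one.

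**Figure D1:**
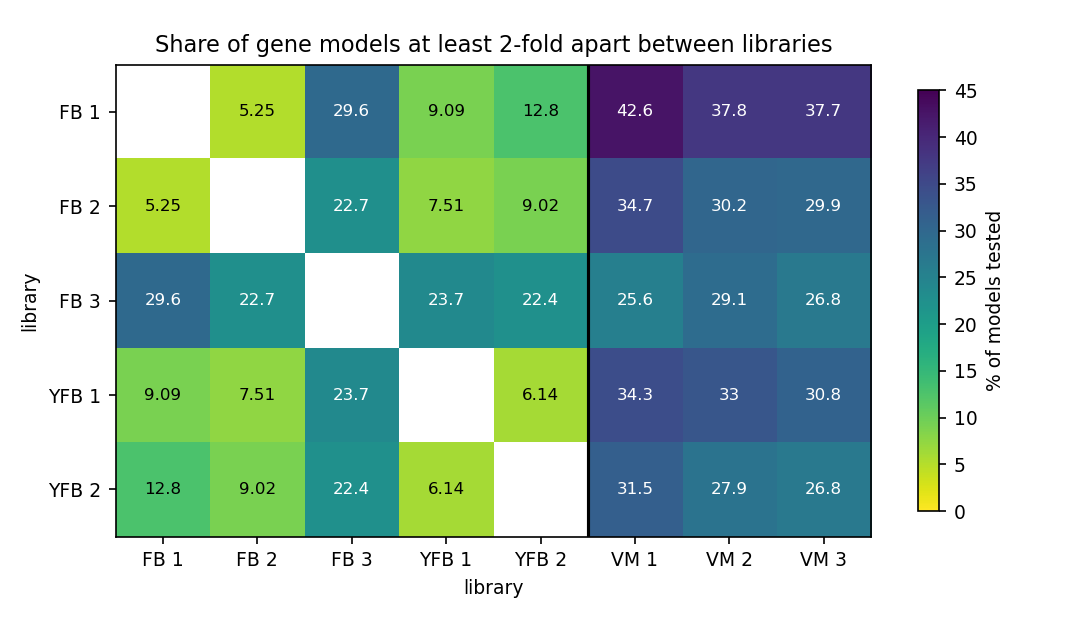
Each cell gives the percentage of 12510 tested gene models whose log2 CPM differed by at least 1 between the library of its row and that of its column (FB, fruiting body; YFB, young fruiting body; VM, vegetative mycelium). FB 1, FB 2, YFB 1 and YFB 2 differed from each other in 5.25 to 12.8% of models, and FB 3 differed from each of them in 22.4 to 29.6%.

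With all libraries in the fit, no gene model was called different between FB and YFB (0 of 12510, 0%; edgeR quasi-likelihood F test, adjusted p below 0.05). The smallest adjusted p was 0.0698, and 11 models had an adjusted p below 0.1. At an unadjusted p below 0.05 there were 987 models (7.89% of those tested), 526 higher in FB (4.2%) and 461 lower (3.69%). Their median log2 fold changes were 1.23 and -0.96, against 0.04 over all tested models. These medians are a description, since the same values chose the models. An unadjusted p below 0.05 also takes in a share of about 0.05 of models that do not differ. Other tools on the same libraries called 1 model (limma-voom, 0.00799%), 0 (limma-trend on the deposited log2 RPKM) and 248 (DESeq2, 140 higher and 108 lower; 2.09% of the models with an adjusted p). All 248 had an unadjusted p below 0.05 and the same direction in edgeR.

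The lack of calls does not show that the stages were alike. The 95% interval of the log2 fold change lay between -1 and 1 in 6409 models (51.2%), for which a difference of 2-fold or more falls outside the interval. It lay between -2 and 2 in 11123 models (88.9%). The median standard error was 0.31 on the log2 scale, and 0.27 without FB replicate 3. The coefficient of variation between replicates that edgeR fitted over all models was 0.322 with all libraries. It was 0.230 without FB replicate 3 and 0.299 and 0.325 without FB replicates 1 and 2.

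The number of calls varied with the tool, as above, and with the libraries used. Without FB replicate 3, 81 models were called, 45 higher and 36 lower (0.649%, edgeR), and 1499 had an unadjusted p below 0.05, 650 of them higher and 849 lower. Of the 81, 73 had an unadjusted p below 0.05 in the same direction with all libraries (edgeR). The omitted replicate 3 lay above both YFB libraries in 32 of the 45 higher models and below both in 10. In the 36 lower models it lay below both in 32 and above both in 3. When limma-voom was allowed to estimate how much each library should count, FB replicates 1, 2 and 3 received weights of 0.861, 3.81 and 0.195. The 2 YFB libraries received 0.953 and 0.993. This fit called 157 models, 74 higher and 83 lower (1.25%), and 154 of them had an unadjusted p below 0.05 in the same direction in edgeR with equal weights. On the flowcell that the stages share, where FB is replicate 2 alone and is assumed to vary like the other stages, 64 models were called, 54 higher and 10 lower (0.509%, edgeR). The other flowcell held no YFB library and gives no comparison. Without YFB replicate 2 the count of models at an unadjusted p below 0.05 was 552, 217 higher and 335 lower, and 2 models were called, both lower. Without YFB replicate 1 it was 737 with 0 called, 350 higher and 387 lower. Without mycelium in the fit 664 models had an unadjusted p below 0.05, 334 higher and 330 lower, and 0 were called.

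**Figure D2:**
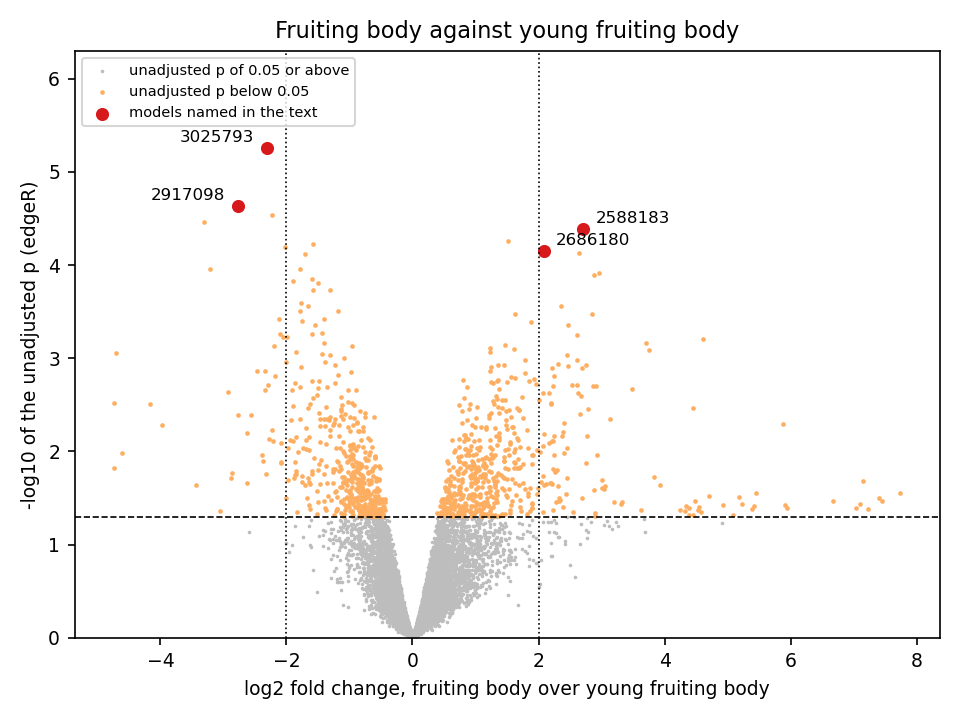
Each point is a gene model, with its log2 fold change of FB over YFB on the x axis and -log10 of its unadjusted p in the edgeR test of all 8 libraries on the y axis, a dashed line at the unadjusted threshold of 0.05 and dotted lines at a 4-fold change. No model was called after adjustment, and of the models above the dashed line 31 lay beyond a log2 fold change of 4 and 5 below -4.

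Some models separated the stages in every library. Models were picked that changed 4-fold or more at an unadjusted p below 0.05, whose FB libraries all lay on the same side of both YFB libraries, and whose higher stage averaged at least 10 RPKM (unique reads over library size and over the length of the model). Of these, 67 were higher in FB (0.536% of those tested) and 28 lower (0.224%). For each direction the 2 with the smallest p are given by library.

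Model 2588183 (1283 bp) stood at 33.0, 49.5 and 39.0 RPKM in FB replicates 1, 2 and 3, against 5.89 and 6.54 RPKM in YFB replicates 1 and 2. Every FB library was at least 5.04-fold above the higher YFB library, and FB replicate 3 lay between the other two. The stage means were 40.5 ± 8.38 RPKM in FB (SD, n = 3) and 6.21 ± 0.464 RPKM in YFB (SD, n = 2). Its log2 fold change was 2.70 ± 0.35 (SE; 95% interval 1.90 to 3.51; adjusted p = 0.0859, edgeR). The mycelium libraries stood higher than either fruiting stage, at 138, 67.2 and 124 RPKM. Without FB replicate 3 its adjusted p was 0.0159, and on the shared flowcell alone 0.00908 (edgeR). Over all 20 alternatives, which use edgeR, limma or DESeq2, the adjusted p ran from 4.57e-10 to 0.378.

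Model 2686180 (1281 bp) stood at 153, 118 and 208 RPKM in FB replicates 1, 2 and 3, against 39.2 and 36.0 RPKM in YFB replicates 1 and 2. The lowest FB library was 3.00-fold above the higher YFB library. The means were 159 ± 45.3 RPKM in FB (SD, n = 3) and 37.6 ± 2.25 RPKM in YFB (SD, n = 2), with a log2 fold change of 2.08 ± 0.29 (SE; 95% interval 1.41 to 2.75; adjusted p = 0.0859, edgeR). Mycelium, at 93.1 to 132 RPKM, overlapped with the FB libraries. Its adjusted p was 0.0180 without FB replicate 3 and 0.0535 on the shared flowcell alone (edgeR). Across the alternatives its adjusted p (edgeR, limma or DESeq2) ran from 3.17e-08 to 0.524.

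Model 3025793 (2001 bp) had the smallest p of all models. It stood at 16.5, 11.5 and 11.4 RPKM in FB replicates 1, 2 and 3, against 65.4 and 64.9 RPKM in YFB replicates 1 and 2. The 3 FB libraries were close together, and the highest of them was 3.93-fold below the lower YFB library. The means were 13.1 ± 2.91 RPKM in FB (SD, n = 3) and 65.1 ± 0.346 RPKM in YFB (SD, n = 2), with a log2 fold change of -2.31 ± 0.23 (SE; 95% interval -2.84 to -1.78; adjusted p = 0.0698, edgeR). In mycelium it stood at 5.66 to 7.82 RPKM, below every fruiting library. Its adjusted p was 0.0352 with upper-quartile factors in place of TMM factors (edgeR) and 0.0469 with limma-voom. It was 0.00995 without FB replicate 3 and 0.0108 on the shared flowcell alone (edgeR). The adjusted p ranged over the alternatives (edgeR, limma or DESeq2) from 1.78e-11 to 0.309.

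Model 2917098 (1791 bp) stood at 8.23, 7.13 and 8.85 RPKM in FB replicates 1, 2 and 3, against 71.5 and 39.0 RPKM in YFB replicates 1 and 2. The FB libraries again agreed closely, whereas the YFB libraries differed from each other. The means were 8.07 ± 0.872 RPKM in FB (SD, n = 3) and 55.3 ± 23.0 RPKM in YFB (SD, n = 2), with a log2 fold change of -2.78 ± 0.34 (SE; 95% interval -3.55 to -2.01; adjusted p = 0.0859, edgeR). Its mycelium libraries, at 6.12 to 11.6 RPKM, enclosed the FB values. Its adjusted p was 0.0172 without FB replicate 3 and 0.0585 on the shared flowcell alone (edgeR). Its range of adjusted p over the alternatives (edgeR, limma or DESeq2) was 3.36e-10 to 0.321. All 4 models were called by DESeq2 and by limma-voom with library weights. Their fold changes kept their direction in all 20 alternatives. That was largely fixed in advance, since the rule that chose these models left no overlap between FB and YFB libraries. No read of any of the 4 models was shared with another model.

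**Figure D3:**
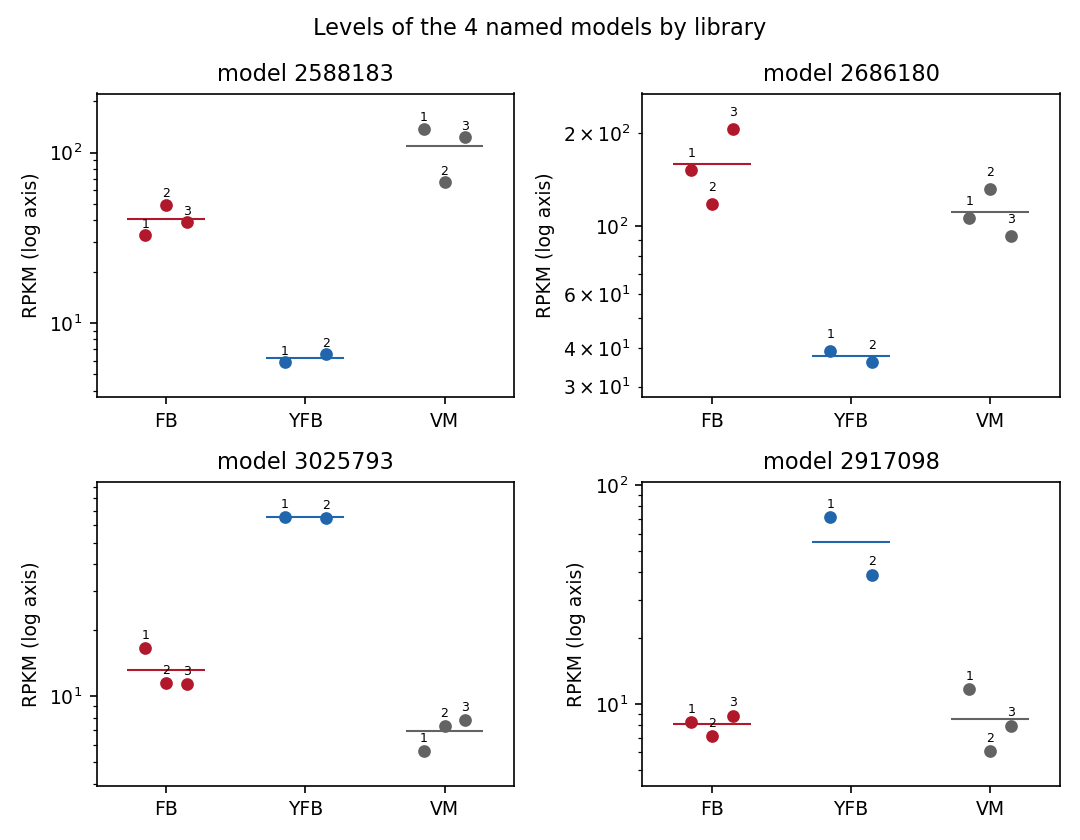
RPKM of the 4 named gene models in each library, on log axes, with the replicate number above each point and a line at the mean of the stage (FB, fruiting body; YFB, young fruiting body; VM, vegetative mycelium). Models 2588183 and 2686180 were higher in all 3 FB libraries than in both YFB libraries, and models 3025793 and 2917098 lower, with FB replicate 3 next to replicates 1 and 2 in each.

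The wider group of 95 models from which these came held few uniform changes. Of the 67 models higher in FB, 10 were at least 4-fold above the YFB mean in each FB library, and 25, 38 and 50 were so in FB replicates 1, 2 and 3. Replicate 3 was the highest FB library in 35 of the 67. Of the 28 lower models, 9 were at least 4-fold below the YFB mean in each FB library, and 16, 20 and 20 were so in replicates 1, 2 and 3. Median model levels in the higher group were 61.5 RPKM in FB and 7.89 RPKM in YFB. In the lower group they were 11.2 RPKM in FB and 67.3 RPKM in YFB. These medians are a description, since the values they rest on chose the models.

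The level of these 95 models in mycelium is given as a description, because they were chosen for low or high YFB values and any other stage then tends to lie on the FB side. Over all tested models the mycelium mean was above the YFB mean in 50.3%. In 60 of the 67 higher models the mycelium mean was above the YFB mean, and in 33 it was above the FB mean too. In 26 of the 28 lower models the mycelium mean was below the YFB mean, and in 16 it was below the FB mean too. The median mycelium levels were 55.7 RPKM in the higher group and 9.12 RPKM in the lower group. The mycelium mean was within 2-fold of the FB mean in 25 higher and 17 lower models. Over all tested models, 25.6 to 42.6% were at least 2-fold apart between single FB and mycelium libraries, so most lay within 2-fold. The distances of FB and of mycelium from YFB rest on the same YFB libraries.

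The largest fold changes above YFB were estimated from FB replicate 3. At an unadjusted p below 0.05, 117 models were at least 4-fold higher in FB (0.935%) and 41 at least 4-fold lower (0.328%). Replicate 3 was the highest FB library in 78 of the 117, and in 40 of the 117 the stages overlapped between libraries. Without replicate 3 there were 62 such higher models and 53 lower ones, a nearly even split. Without YFB replicate 2 they were 57 and 41, and without FB replicate 1 they were 179 and 63. The 117 higher models became 48 with limma-voom, 52 with the replicate number as a block and 66 without mycelium in the fit. Among the 31 models estimated at least 16-fold higher, replicate 3 was the highest FB library in 29 and the stages overlapped in 26. Their median levels were 3.67, 3.19 and 475 RPKM in FB replicates 1, 2 and 3, against 3.38 and 3.73 RPKM in YFB replicates 1 and 2. Replicates 1 and 2 were thus at the level of YFB, and the median mycelium level of these models was 486 RPKM. On the other side, 5 models were estimated at least 16-fold lower, with medians of 130 and 4.21 RPKM in YFB replicates 1 and 2. Their medians in FB replicates 1, 2 and 3 were 4.21, 3.71 and 3.32 RPKM. The stages overlapped in 3 of the 5.

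FB replicate 3 also stood out when each of the 5 libraries was set against the other 4. It was at least 4-fold above all the others in 147 models (1.18%) and at least 4-fold below all of them in 89 (0.711%). The same counts were 8 above and 8 below in FB replicate 1, 6 and 0 in FB replicate 2, 10 and 1 in YFB replicate 1, and 14 and 3 in YFB replicate 2. In 40 models FB replicate 3 was at least 16-fold above the other 4 libraries, and these models took 2.88% of its unique reads. They stood at a median of 351 RPKM in FB replicate 3, against 3.23 RPKM over the other 4 libraries, and at 343 RPKM in mycelium. In 38 of the 40 the mycelium mean was at least 4-fold above the YFB mean, and in 22 the level of FB replicate 3 was within 2-fold of the mycelium mean. Of the 147 models, 84 were at least 4-fold higher in mycelium than in YFB and 0 at least 4-fold lower. In 60 of the 147, FB replicate 3 was within 2-fold of the mycelium mean. Over all tested models, 25.6 to 29.1% were at least 2-fold apart between FB replicate 3 and single mycelium libraries. Most models thus lay within 2-fold, and the counts within 2-fold do not set these models apart. Of the 89 models in which FB replicate 3 was lowest, 40 were at least 4-fold lower in mycelium than in YFB and 1 at least 4-fold higher. Over all 12510 tested models, 577 to 656 were at least 4-fold higher in single mycelium libraries than in YFB replicate 2. In the same libraries 573 to 635 were at least 4-fold lower. The counts are a description, since YFB values far from FB replicate 3 chose the models. Any other stage then tends to lie on its side.

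The position of each FB library between YFB and mycelium was measured in models that neither that library nor the YFB library it is set against had chosen. With YFB replicate 1, 672 models were at least 4-fold higher in the mycelium mean and 641 at least 4-fold lower. Levels were then read against YFB replicate 2. In the 672 mycelium-high models the median log2 difference from YFB replicate 2 was -0.36, -0.04 and 0.95 in FB replicates 1, 2 and 3, and 2.49 to 2.65 in the mycelium libraries. In the 641 models low in mycelium it was 0.42, 0.23 and -0.70 in FB replicates 1, 2 and 3, and -2.90 to -2.69 in mycelium. YFB replicate 1 itself lay at -0.38 and 0.42 in these sets, and it had a part in choosing them. The mycelium libraries had a part too, so their medians were largely fixed by the choice. Over all tested models the medians of the FB libraries were -0.01, -0.01 and 0.05. FB replicate 3 thus lay on the mycelium side of YFB replicate 2 in both sets, and FB replicate 1 on the other side.

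When YFB replicate 2 chose the models and YFB replicate 1 was the base, the order of the FB libraries was the same. The medians in 577 mycelium-high models were -0.06, 0.30 and 1.13 in FB replicates 1, 2 and 3. In 578 models low in mycelium they were 0.19, -0.07 and -1.06. YFB replicate 2 lay at -0.02 and -0.19 in these sets, so that FB replicate 2 lay towards mycelium from both YFB libraries in the first of them. Relative to the base, FB replicate 2 had opposite signs with the 2 choices of YFB library, in both kinds of set. In FB replicate 3, 145 of the 672 mycelium-high models were at least 4-fold above YFB replicate 2, against 17 in FB replicate 1 and 37 in FB replicate 2. What set replicate 3 apart was not tested.

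**Figure D4:**
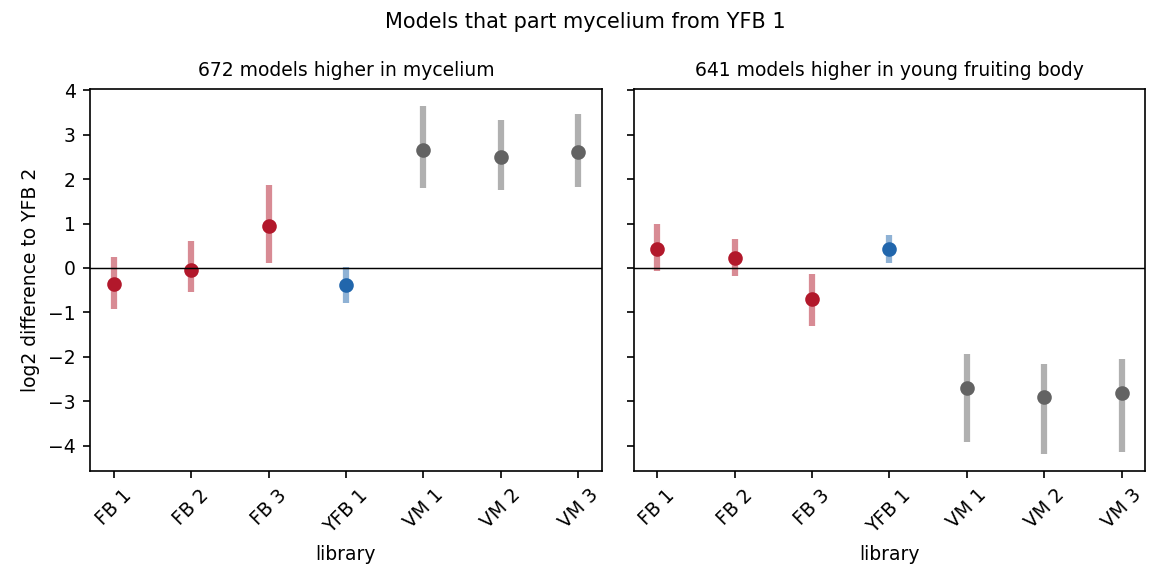
Median (point) and middle 50% (bar) of the log2 difference of each library from YFB replicate 2, in the 672 gene models at least 4-fold higher (left) and the 641 at least 4-fold lower (right) in the mycelium mean than in YFB replicate 1. FB 3 lies at 0.95 and -0.70, on the side of the mycelium libraries, and FB 1 and FB 2 lie between -0.36 and 0.42.

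Whether the FB libraries shared their distance from YFB was read with a different YFB library for the choice and for the measurement. Models were taken in which the other 2 FB libraries both lay at least 2-fold from YFB replicate 1 in the same direction, and the remaining FB library was set against YFB replicate 2. For FB replicate 1 there were 266 higher and 181 lower models, in which its median log2 difference was 0.40 and -0.78. For FB replicate 2 there were 131 and 151, with medians of 1.06 and -0.86. For FB replicate 3 there were 204 and 249, with medians of 0.73 and -0.50. Over all tested models the same medians were between -0.01 and 0.05. FB replicate 3 was above YFB replicate 2 in 134 of the 204 higher models and below it in 168 of the 249 lower ones, whereas it was above YFB replicate 2 in 52.7% of all tested models.

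With the YFB libraries exchanged, FB replicates 1 and 2 kept these directions and FB replicate 3 did so in the higher models alone. The medians against YFB replicate 1 were 0.48 and -0.41 in FB replicate 1 (289 higher and 241 lower models). They were 0.92 and -0.42 in FB replicate 2 (186 and 215 models). In FB replicate 3 they were 0.35 and 0.18 (301 and 386 models), so that in the models that were lower in FB replicates 1 and 2 it lay slightly above YFB replicate 1. No test was made of these medians.

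The FB libraries differed in how far they lay from YFB in the models of each direction, given here as a description because these values chose the models. The 461 models lower at an unadjusted p below 0.05 had median log2 differences from the YFB mean of -0.88, -0.87 and -1.06 in FB replicates 1, 2 and 3. The 526 higher models had medians of 0.73, 1.04 and 1.40. All 3 FB libraries were above both YFB libraries in 454 of the 526, and below both in 432 of the 461. Over all tested models, FB lay wholly above YFB in 1259 (10.1%) and wholly below in 1229 (9.82%). These shares count differences of any size and alone show no change between the stages.

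The shift of FB libraries also varied with the level and length of the gene model. In models with a mean of 1 to 10 RPKM over the 8 libraries, the median log2 difference from the YFB mean was -0.29, -0.11 and 0.35 in FB replicates 1, 2 and 3. In the 64 models above 1000 RPKM it was 0.19, 0.11 and -0.35. The YFB libraries themselves differed by 0.02 and 0.24 in these classes (replicate 1 minus replicate 2). The FB libraries also had a part in the mean that set the classes. FB replicate 1 thus had lower levels of weakly expressed models and higher levels of abundant ones, and replicate 3 the reverse. The number of models detected followed the same order: 11722, 11929 and 12172 models reached 1 RPKM in FB replicates 1, 2 and 3, against 12035 and 12046 in YFB. Among models of up to 500 bp, 5.98% were higher and 1.90% lower in FB at an unadjusted p below 0.05 (edgeR). Among models over 3000 bp, 1.38% were higher and 3.50% lower. In FB replicate 3 the median difference was 0.11 up to 500 bp, 0.17 over 500 to 1000 bp and -0.15 over 3000 bp. The shortest and longest classes gave 0.08 and -0.02 in FB replicate 1, and 0.03 and 0.02 in FB replicate 2. The YFB libraries differed from each other along the same axis, by 0.19 in models of up to 500 bp and -0.12 in those over 3000 bp (replicate 1 minus replicate 2). The part of length and level in the counts above was not tested.

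**Figure D5:**
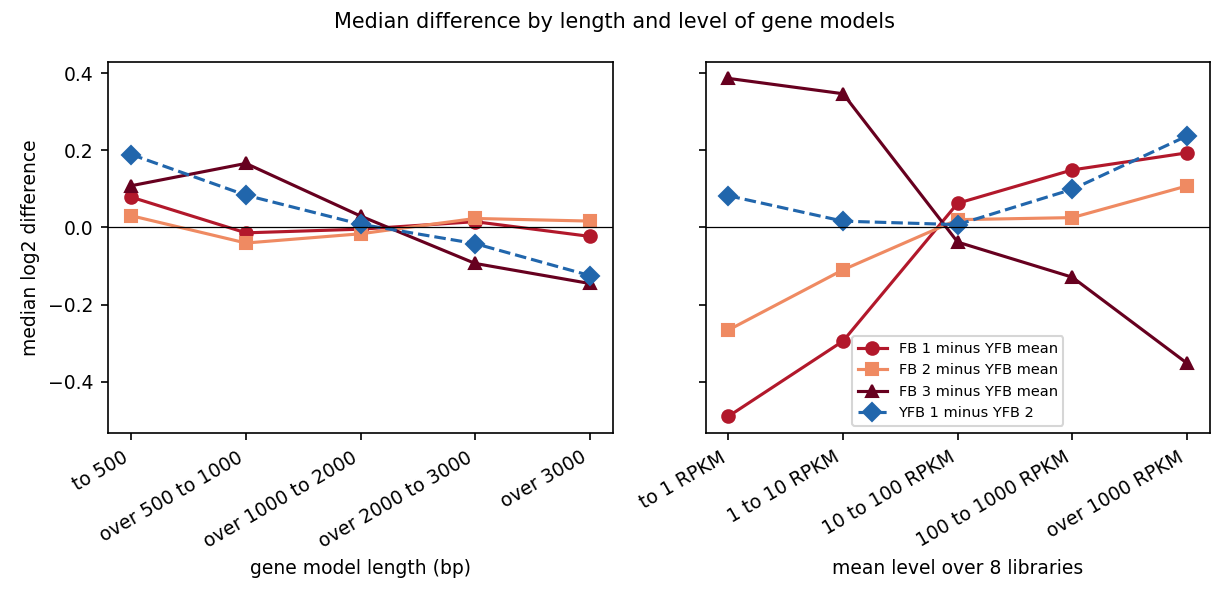
Median log2 difference from the YFB mean in each FB library, by class of gene model length in bp (left) and of mean RPKM over the 8 libraries (right), with YFB replicate 1 minus replicate 2 as a dashed line. FB 3 is highest in weakly expressed models (0.39 up to 1 RPKM) and lowest in abundant ones (-0.35 above 1000 RPKM), and FB 1 runs the other way.

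The most abundant messages were shared by both stages. The 3 models with the highest mean over the 5 libraries are given for their level. Model 2959355 (375 bp) stood at 23268, 16706 and 9132 RPKM in FB replicates 1, 2 and 3, and at 20063 and 10623 RPKM in YFB replicates 1 and 2. The stages overlapped, with a log2 fold change of 0.09 ± 0.62 (SE; 95% interval -1.33 to 1.51). Model 6405 (1713 bp) stood at 20646, 13487 and 5882 RPKM in FB replicates 1, 2 and 3, and at 13547 and 7791 RPKM in YFB replicates 1 and 2. It alone took 3.28, 2.26 and 1.14% of unique reads in FB replicates 1, 2 and 3, and 2.35 and 1.39% in YFB. In mycelium model 2959355 stood at 10.4 to 38.1 RPKM and model 6405 at 5.50 to 10.3 RPKM. Model 2903855 (315 bp), by contrast, was as abundant in mycelium, at 7455 to 13483 RPKM, as in the fruiting stages. It stood at 6755, 7045 and 14360 RPKM in FB replicates 1, 2 and 3, and at 11220 and 7004 RPKM in YFB replicates 1 and 2. FB replicate 3 was the lowest of the 5 libraries for models 2959355 and 6405 and the highest for model 2903855.

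The 10 most abundant models by reads took 10.0, 7.95 and 4.95% of unique reads in FB replicates 1, 2 and 3, and 8.65 and 5.80% in YFB replicates 1 and 2. Of the 100 models with the highest level per length in each library, FB replicates 1 and 2 shared 82 and the YFB libraries 81. FB replicates 1 and 2 shared 73 to 83 with the YFB libraries, and FB replicate 3 shared 59 to 61. FB replicate 3 shared 48 to 50 with mycelium, against 22 to 35 for FB replicates 1 and 2 and 26 to 39 for the YFB libraries.

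No model was switched on or off between the stages in every library. None was below 1 RPKM in both YFB libraries and at or above 10 RPKM in all FB libraries, and none showed the opposite. Taken singly, FB replicates 1 and 2 had no such model in either direction, and replicate 3 had 2 that were on and 1 that was off. None of the models with 0 reads in both YFB libraries had more than 3 reads in each FB library, and none with more than 3 reads in each YFB library had 0 reads in all FB libraries. In FB replicate 1 alone, 19 models with more than 3 reads in each YFB library had no read, against 3 in replicate 2 and 2 in replicate 3.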

How the data were processed

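Per the file headers, the authors deposited a table per library with unique and total gene read counts for 13602 gene models, each its own reference sequence, and the model length in bases. A deposited matrix holds log2 RPKM, judged by its name and values. R 3.0.2, edgeR 3.4.2 and also limma 3.18.13 appear in the submitters' processing notes, with no role stated. Aligner and genome release: not given in the sources used here. The kit is unstranded, so a model and its antisense neighbour may share reads.

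Unique gene reads were tested in R 4.3.3 with edgeR 4.0.16 in a single fit of all 8 libraries (filterByExpr on stage groups, TMM, robust dispersion and quasi-likelihood estimates). The contrast was FB minus YFB, with Benjamini-Hochberg adjustment over 12510 models; the 1092 other models had too few reads. SEs were the log2 fold change over the square root of F, and 95% intervals used the fitted degrees of freedom. RPKM used unique reads and TMM-scaled library sizes, and log2 CPM a prior count of 2. Replicates differed by more than sampling noise (chi-square over its degrees of freedom at least 67.4 among FB and YFB). Named models met the rule stated beside them, 2 per direction by smallest p, and 3 by level. The models, sets and tests were chosen with earlier results of these data known. Alternatives used DESeq2 1.42.0 and limma 3.58.1, other factors, filters and reads, the replicate block, the flowcell, and omission of single libraries.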

Additional observations from a re-analysis of the deposited data

Results flagged for a closer look

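The comparison used unique reads, and 61 models had 0 unique reads throughout although over 3 reads shared with other models fell on them in some library. In 6 of the 61 the CPM of total gene reads was higher in every FB library than in every YFB library, and in 5 it was lower in every FB library. Over all tested models the shares that separated the stages in this way were 10.1% and 9.82%, so these reads did not stand out. Together these models held 1164, 992 and 1044 CPM of total gene reads in FB replicates 1, 2 and 3, and 1293 and 1013 CPM in YFB replicates 1 and 2. The difference was not tested.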

How the results depend on the processing

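Fitted with edgeR to all 8 libraries, the comparison gave 0 calls. DESeq2 gave 248, limma-voom with library weights 157 and without weights 1, and edgeR gave 1 with the flowcell as a covariate, 1 under upper-quartile scaling and 64 on the shared flowcell. The count at an unadjusted p below 0.05, 987, became 1770 with library weights and 464 with the flowcell covariate, where the FB level rests on replicate 2. The cause was not tested. Omitting single libraries gave 0 to 81 calls and 552 to 1499 models at an unadjusted p below 0.05. The highest values were those without FB replicate 3, and the lowest count at an unadjusted p was that without YFB replicate 2. No direction of a named model reversed, which the lack of overlap in the rule that chose these models largely fixed in advance.

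The labels do not state that FB and YFB libraries with the same replicate number belong together. Deviations from the stage means correlated at 0.14 (replicate 1) and -0.09 (replicate 2) across models. The deviations of the 2 YFB libraries mirror each other, so FB replicate 1 correlated at -0.14 with YFB replicate 2. These correlations therefore cannot decide whether the numbers mark pairs. With the replicate block, 0 models were called and 792 had an unadjusted p below 0.05. The median SE on the log2 scale was 0.59 for models up to 1 RPKM, 0.41 at 1 to 10 RPKM, 0.27 at 10 to 100 RPKM and 0.50 above 1000 RPKM. Precision was thus lowest among the weakest models and next lowest among the most abundant. A model with 0 reads in a library could still hold up to 3 there.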
